A study of Mus musculus with 12 samples.

Results

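The genes described here encode 10 integrin subunits, the α chains Itga1, Itga2, Itga4, Itga5, Itga6, Itga8 and Itgav and the β chains Itgb1, Itgb3 and Itgb5, in endothelial cells (ECs) of the mouse lung during growth of metastases. They were taken as a list of 10 among the 18193 genes that the arrays measure with a probe set of a single gene symbol. The list was chosen with earlier results of these data known. A probe set is a group of short DNA probes for one transcript, and where a gene had several, the one of highest average signal across the 12 arrays stood for it. The groups were ECs from lungs 1, 2 or 3 weeks after tumor cells were injected and ECs from healthy lungs, with 3 arrays of separate biological replicates in each. All mice were NSG, an immunodeficient strain that lacks T, B and natural killer cells, and were females injected at 6 to 8 weeks of age. Metastases were grown from MDA231-LM2 cells, a lung-metastatic derivative of the human breast cancer line MDA-MB-231, given through the tail vein, and healthy mice carried no tumor cells. ECs were sorted as CD31+ cells that were CD45-, CD11b-, EpCAM-, CD140a-, CD140b- and GFP-. The immune cells that NSG mice retain, such as macrophages and neutrophils, are part of the host in every group.

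Integrins are receptors made of one α and one β chain that span the membrane and link the extracellular matrix, or ligands on other cells, to the actin cytoskeleton. The pairing sets the ligand: α1β1 and α2β1 bind collagens, α6β1 binds laminins, α5β1 binds fibronectin, α4β1 binds VCAM1 and fibronectin, α8β1 binds nephronectin, and αVβ3 and αVβ5 bind vitronectin and other proteins with an RGD sequence. In ECs, integrins anchor the cell to its basement membrane, and αVβ3 is known for its rise on vessels that sprout.

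Values are log2 signals, on which a difference of 1 is a doubling. The signal of one probe set cannot be set against that of another, so each subunit was compared only with itself across groups. All 10 subunits lay above the median of all values on at least 3 arrays, and 9 did so on all 12 arrays. Of the 10, 4 (Itga1, Itga6, Itgav and Itgb1) varied by less than 0.5 log2 units over the 12 arrays, and 3 (Itga4, Itga8 and Itgb3) varied by more than 1. At week 3, 1 subunit rose against healthy (Itgb3), 2 fell (Itga8 and Itga4) and 7 did not pass the test, where a call means an adjusted p below 0.05 in limma over all 45037 probe sets. Over all genes, 2.38% rose and 2.63% fell in that comparison, 5.01% in all. An unadjusted p below 0.05 was found for 5 of 10 subunits, beside 21.4% of all genes. At week 2 and at week 1, 0 of 10 subunits passed against healthy, beside 0.242% of all genes at week 2 (0.104% higher and 0.137% lower) and 0.0495% at week 1 (0.011% higher and 0.0385% lower). An unadjusted p below 0.05 was found for 2 subunits at week 2 and 1 at week 1, beside 10.5% and 8.98% of all genes. The Gapdh control probe sets, whose 3′ minus 5′ log2 signal is a sign of RNA quality, differed by 0.52 ± 0.16 in healthy lungs, 0.47 ± 0.06 at week 1, 0.35 ± 0.05 at week 2 and 0.31 ± 0.08 at week 3 (SD, n = 3 each), and the part of this in the calls was not tested. The median log2 fold change of the 10 subunits at week 3 was 0.00, beside 0.03 over all genes.

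**Figure D1:**
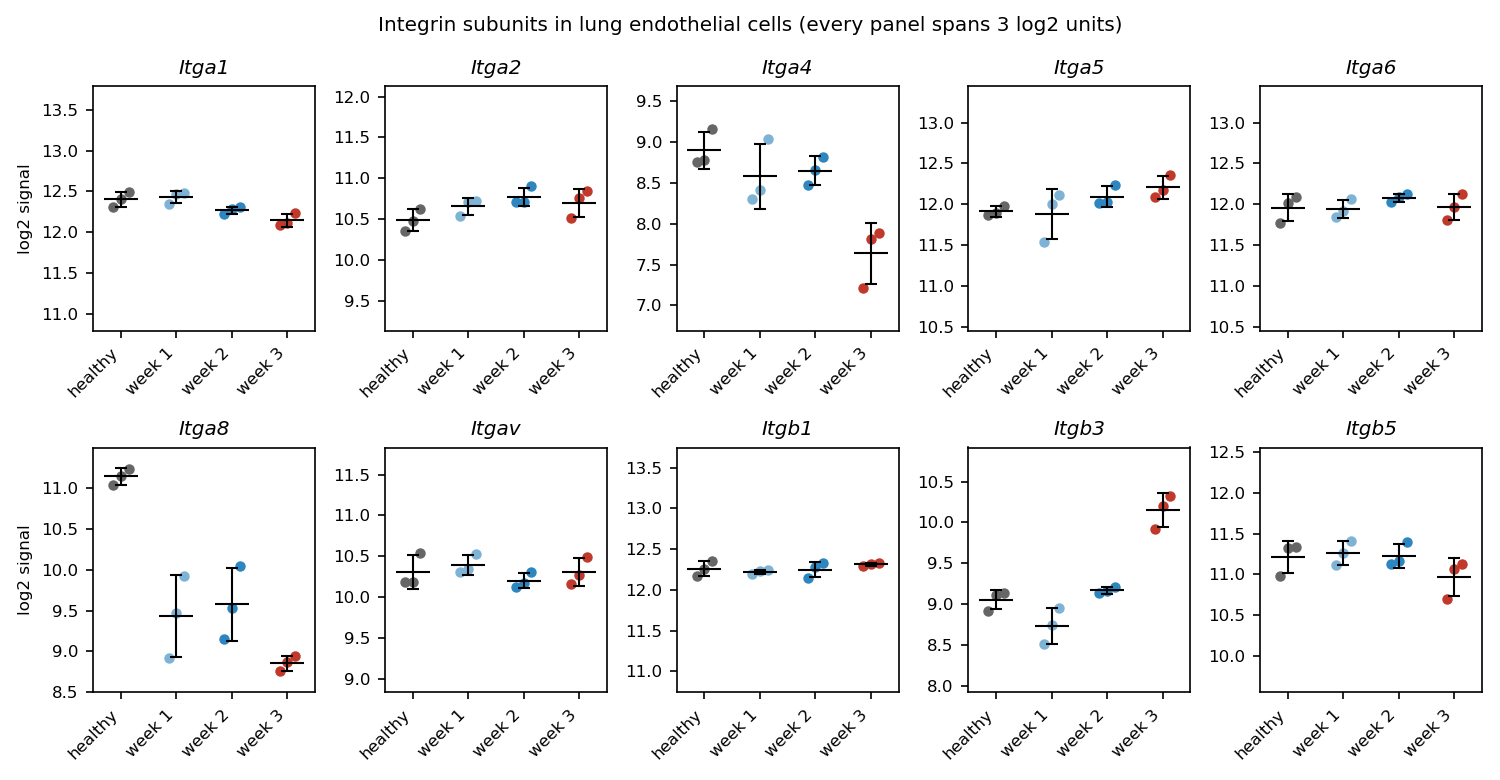
Log2 signal of the 10 integrin subunits on each array in healthy lungs and at weeks 1, 2 and 3, with a panel for each gene, points for the 3 arrays of a group and black bars for mean ± SD. Every panel spans the same height in log2 units on its own range: Itga8 lies lower in all weeks than in healthy lungs, Itga4 is lower and Itgb3 higher at week 3, and the points of the other panels span less than 1 log2 unit.

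Itgb3, the β3 chain that pairs with αV on ECs and with αIIb (Itga2b) on platelets, was the subunit that rose. Its log2 signals were 8.92, 9.13 and 9.11 in healthy lungs, 8.74, 8.51 and 8.95 at week 1, 9.21, 9.16 and 9.13 at week 2, and 9.92, 10.20 and 10.33 at week 3. All 3 week 3 arrays lay above the other 9, and the means were 10.15 at week 3 and 9.05 in healthy lungs. The log2 fold change against healthy was 1.10 (SE 0.14, 95% interval 0.77 to 1.42, 2.14-fold, adjusted p = 0.00948). Against week 2 it was 0.98 (SE 0.13, adjusted p = 0.0224) and against week 1 it was 1.42 (SE 0.16, adjusted p = 0.0199). Itgb3 was the 1 subunit of 10 that passed in each of these comparisons between weeks, where 2.1% of all genes passed against week 2 (1.35% higher and 0.748% lower) and 0.841% against week 1 (0.649% higher and 0.192% lower). An unadjusted p below 0.05 was found for 3 subunits against week 2 and 4 against week 1, beside 16.9% and 13.5% of all genes. Week 2 and week 1 did not overlap for Itgb3, but the difference of 0.43 did not pass (SE 0.14, adjusted p = 0.550), and 0 genes (0%) passed between these weeks in limma, where 1192 genes (6.55%) and 1 subunit had an unadjusted p below 0.05. At week 1 the log2 fold change against healthy was -0.32 (adjusted p = 0.579).

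The rise against healthy passed whichever single array was left out, at 1.01 to 1.21. The rise against week 1 passed with none of the 6 arrays left out in turn (adjusted p of 0.0554 to 0.0895), and that against week 2 passed only without week 3 replicate 1, the other 5 giving adjusted p of 0.0612 to 0.0830. With fewer arrays the calls over all genes also fell, to 0 to 52 against week 1 and 0 to 137 against week 2. Itgb3 has a second probe set of lower signal, and it gave smaller differences in the same direction at week 3. Against healthy its log2 fold change was 0.48 (adjusted p = 0.192), against week 2 it was 0.38 (adjusted p = 0.293) and against week 1 it was 0.55 (adjusted p = 0.218). The call for Itgb3 thus rests on one of its 2 probe sets.

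The chains that could pair with Itgb3 gave different values. Itgav, which encodes the αV chain, read 10.16, 10.26 and 10.49 at week 3 and 10.54, 10.19 and 10.18 in healthy lungs, and the groups overlapped. Its log2 fold change was 0.00, with a 95% interval of -0.35 to 0.35. Its other 4 probe sets disagreed in direction, with log2 fold changes of -0.11, 0.31, 0.18 and 0.32, and none of the 5 passed in limma. Itga2b, which is not among the 10 subunits, read 9.69, 9.86 and 9.88 at week 3, against 8.43, 8.57 and 8.34 at week 1, and rose between them (log2 fold change 1.37, SE 0.12, adjusted p = 0.00922). In healthy lungs Itga2b read 9.23, 9.66 and 9.43. Every week 3 array of Itga2b lay above these, but the difference did not pass.

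Platelet transcripts were low on the same week 1 arrays. The summed level of the 6 platelet and megakaryocyte markers measured was 11.50 to 11.998 at week 3 and 11.64 to 11.90 in healthy lungs, but 10.48 to 10.93 at week 1 and 11.23 to 11.32 at week 2. The week 3 range of these markers overlapped the healthy range. Of the 6 markers, 0 passed at week 3 against healthy, beside 5.01% of all genes. Against week 1, 2 rose (Pf4 by 1.54 and Ppbp by 1.63), beside 0.649% of all genes. The part of platelets in the differences of Itgb3 was not tested. Macrophage markers had summed levels of 11.90 to 12.27 at week 3 and 11.61 to 11.87 in healthy lungs. Among 8, C1qa and C1qb rose and Cd68 fell, beside 2.38% risen and 2.63% fallen over all genes. The part of macrophages in the rise of Itgb3 was not tested.

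**Figure D2:**
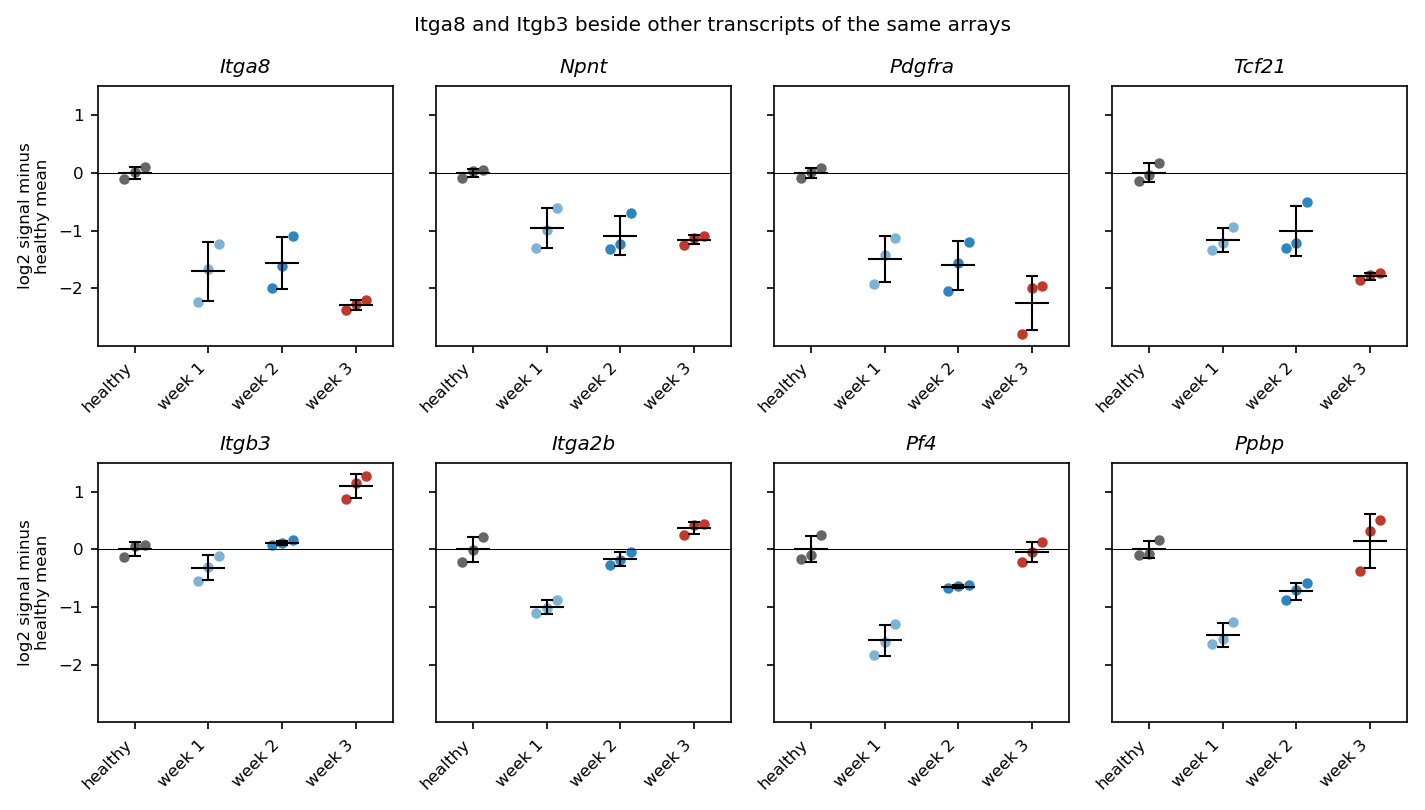
Log2 signal minus the healthy mean on each array for Itga8 with Npnt and the fibroblast markers Pdgfra and Tcf21 (upper row) and for Itgb3 with Itga2b and the platelet markers Pf4 and Ppbp (lower row), with points for arrays and bars for mean ± SD of 3 arrays. All 4 transcripts of the upper row are below healthy in every week. In the lower row Itgb3 at week 3 is above healthy, and so is Itga2b by a smaller step that did not pass. Pf4 and Ppbp at week 3 are spread about the healthy mean.

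Itga8, the α8 chain, pairs with β1 to bind nephronectin and in the lung is known chiefly from fibroblasts and smooth muscle. It fell at week 3. Its log2 signals were 11.24, 11.04 and 11.15 in healthy lungs, 8.91, 9.48 and 9.92 at week 1, 9.53, 10.05 and 9.15 at week 2, and 8.94, 8.87 and 8.76 at week 3. Every array from a lung with metastases lay below every healthy array, and weeks 1 and 2 were more spread than week 3. The means were 8.86 at week 3 and 11.15 in healthy lungs, a log2 fold change of -2.29 (SE 0.11, 95% interval -2.55 to -2.03, 4.89-fold lower, adjusted p = 0.000471). The fall passed in every alternative tried, with adjusted p of 7.7e-05 to 0.0110.

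At week 2 the log2 fold change of Itga8 against healthy was -1.57 (SE 0.22, adjusted p = 0.0611) and at week 1 it was -1.71 (SE 0.24, adjusted p = 0.0604), and neither passed. Each passed under 5 of 16 alternatives. Both passed with all groups in one fit, with the low filter, with the mean of probe sets and with trended and robust variance (adjusted p of 0.0174 to 0.0339 at week 2 and 0.00885 to 0.0305 at week 1). Week 2 also passed without week 2 replicate 2, at -1.80 (adjusted p = 0.0455), and week 1 with array weights (adjusted p = 0.0492). Week 3 lay 0.72 below week 2 (log2 fold change -0.72, adjusted p = 0.163), with no overlap, and 0.58 below week 1 (log2 fold change -0.58, adjusted p = 0.361), with overlap, and neither difference passed. The second probe set of Itga8 gave the same direction and call at week 3, with a log2 fold change of -2.74 (adjusted p = 0.00643).

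Nephronectin (Npnt), the ligand of α8β1, also fell at week 3. It read 11.34, 11.30 and 11.19 at week 3 and 12.49, 12.35 and 12.46 in healthy lungs, with no overlap (log2 fold change -1.16, SE 0.10, adjusted p = 0.00310). At week 2 and week 1 its log2 fold changes of -1.08 and -0.96 did not pass. At week 3, 6 of 10 fibroblast, 3 of 5 alveolar type 1 and 3 of 5 type 2 markers fell, beside 2.63% of all genes. Their part in the fall of Npnt was not tested.

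Most fibroblast markers were also below healthy. Of the 10 on the list, 6 fell at week 3 against healthy, beside 2.63% of all genes. Their median log2 fold change there was -0.92, beside 0.03 over all genes. At week 2, 3 fell and at week 1, 0 fell, beside 0.137% and 0.0385% of all genes. Pdgfra, which encodes the CD140a antigen that the sort excludes, read 9.92, 9.95 and 9.12 at week 3 and 11.93, 11.99 and 11.82 in healthy lungs (log2 fold change -2.25). The summed level of the 10 markers was 15.24 to 15.33 in healthy lungs, 14.56 to 14.65 at week 1, 14.10 to 14.45 at week 2 and 14.70 to 14.89 at week 3. Against week 2, 6 of the 10 were higher at week 3 and 4 lower, with a median log2 fold change of 0.20. Against week 1, 7 were lower and 3 higher, with a median of -0.29. Itga8 was lower in both comparisons, without a call. Mural cell markers had summed levels of 12.90 to 13.12 at week 3 and 13.40 to 13.60 in healthy lungs. Of these, 2 of 11 fell at week 3, beside 2.63% of all genes. The part of fibroblasts and mural cells in the fall of Itga8 was not tested. In these bulk samples, fewer cells of a type and less RNA per cell cannot be told apart.

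Itga4, the α4 chain of the receptor for VCAM1 and fibronectin, is best known from leukocytes and is also made by some ECs. It fell at week 3. Its log2 signals were 8.76, 9.17 and 8.78 in healthy lungs, 8.41, 8.30 and 9.04 at week 1, 8.82, 8.67 and 8.47 at week 2, and 7.89, 7.21 and 7.82 at week 3. The week 3 arrays lay below the other 9, while weeks 1 and 2 overlapped healthy. The means were 7.64 at week 3 and 8.90 in healthy lungs (log2 fold change -1.27, SE 0.21, 95% interval -1.76 to -0.77, 2.40-fold lower, adjusted p = 0.0231). Itga4 was the subunit that was not above the median of all values on every array, and it was above on 9 of 12.

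The difference of Itga4 from week 2 was -1.02 (adjusted p = 0.0600) and from week 1 -0.94 (adjusted p = 0.176), and neither passed. That from week 2 passed under 3 alternatives, with all groups in one fit (adjusted p = 0.0362), with the low filter (adjusted p = 0.0384) and with trended and robust variance (adjusted p = 0.0440). The call against healthy was lost without healthy replicate 1, 2 or 3 or without week 3 replicate 3 (adjusted p of 0.0552 to 0.0799), at log2 fold changes of -1.13 to -1.35. Of its 5 probe sets, 3 fell at week 3, with log2 fold changes of -1.27, -0.89 and -0.84. The other 2 did not pass, with log2 fold changes of -0.21 and -0.54, and lay above the median of all values on 0 of 12 arrays. Among leukocyte markers, Ptprc (CD45) read 9.15, 9.44 and 9.13 at week 3 and 9.46, 8.86 and 8.21 in healthy lungs, which overlapped. The summed level of the 6 leukocyte markers was 11.50 to 11.67 at week 3 and 11.11 to 11.65 in healthy lungs. Of these, 1 rose and 0 fell, beside 2.38% and 2.63% of all genes. The part of leukocytes or other cell types in the fall of Itga4 was not tested. VCAM1 (Vcam1), the ligand on ECs, read 10.87, 10.82 and 10.35 at week 3 and 11.45, 11.42 and 10.89 in healthy lungs, and did not pass (adjusted p = 0.178).

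**Figure D3:**
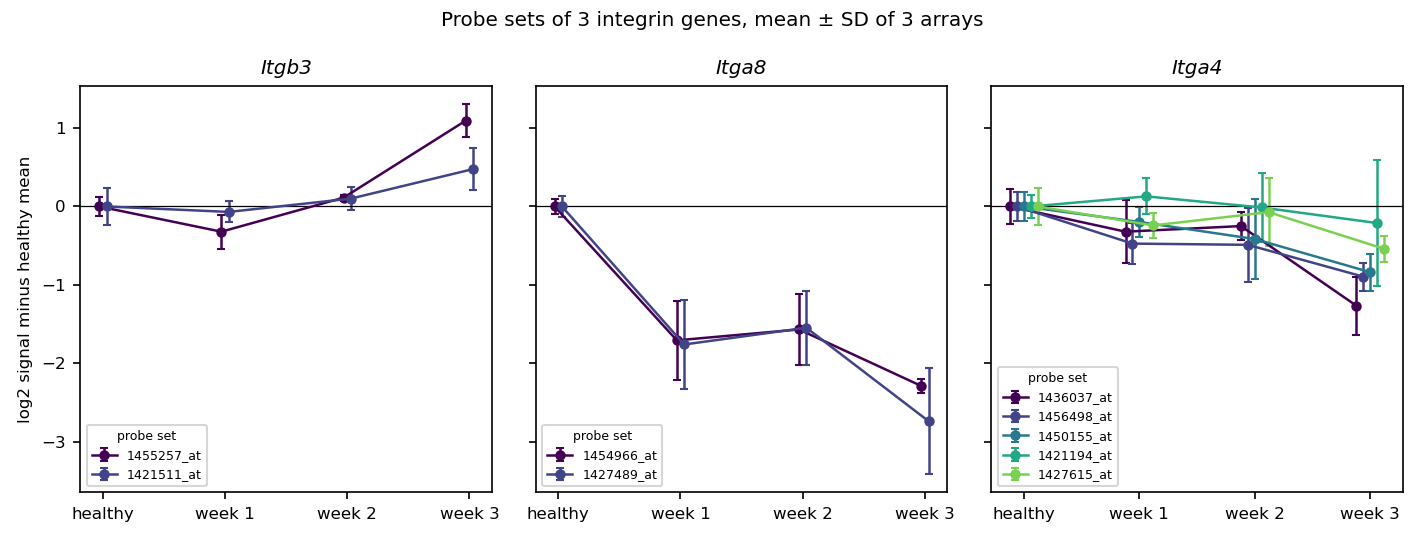
Log2 signal minus the healthy mean for every probe set of Itgb3, Itga8 and Itga4 in healthy lungs and at weeks 1, 2 and 3, drawn as mean ± SD of 3 arrays. At week 3 the probe sets of Itgb3 lie at 1.10 and 0.48, those of Itga8 at -2.29 and -2.74, and those of Itga4 between -1.27 and -0.21.

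RefSeq promoters (GRCm38.p6, 300 bases about the gene start, most of them upstream) were at hand for 8 of the 10 subunits. The pair that fell, Itga4 (chr2:79255176-79255475, plus strand) and Itga8 (chr2:12301895-12302194, minus strand), is shown because both are on chromosome 2 and were lower at week 3. Capitals mark a GC box.
Itga4: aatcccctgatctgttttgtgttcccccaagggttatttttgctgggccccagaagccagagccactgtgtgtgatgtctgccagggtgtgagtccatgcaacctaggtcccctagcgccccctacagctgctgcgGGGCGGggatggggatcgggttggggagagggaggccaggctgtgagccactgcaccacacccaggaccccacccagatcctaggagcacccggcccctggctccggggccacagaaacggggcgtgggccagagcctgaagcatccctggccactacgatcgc
Itga8: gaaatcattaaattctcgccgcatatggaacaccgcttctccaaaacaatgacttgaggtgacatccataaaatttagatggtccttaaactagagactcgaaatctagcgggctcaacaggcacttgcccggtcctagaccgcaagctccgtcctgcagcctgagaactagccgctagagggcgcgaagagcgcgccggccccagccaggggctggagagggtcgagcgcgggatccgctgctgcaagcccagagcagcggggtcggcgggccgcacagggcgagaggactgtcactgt
Both strands were searched for the TATA box TATAAA, the GC box GGGCGG and the CCAAT box CCAAT, motifs that do not overlap each other. The Itga4 window held 1 GC box at base 137 and the Itga8 window held 0 of the 3 motifs. Among 32851 promoters of this length, 13.6% held TATAAA, 35.7% GGGCGG and 37.4% CCAAT. The windows differed in CpG dinucleotides, with 10 in Itga4 and 23 in Itga8, beside a median of 7 over all promoters.

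The collagen receptors Itga1 and Itga2 did not pass. Itga1, the α1 chain, read 12.40, 12.31 and 12.50 in healthy lungs, 12.47, 12.35 and 12.48 at week 1, 12.28, 12.22 and 12.30 at week 2, and 12.11, 12.24 and 12.09 at week 3. The week 3 arrays were below the healthy and week 1 arrays by a small step, at log2 fold changes of -0.26 (SE 0.11, adjusted p = 0.231) against healthy and -0.29 (SE 0.11, adjusted p = 0.345) against week 1. Itga2, the α2 chain, read 10.48, 10.62 and 10.36 in healthy lungs, 10.71, 10.53 and 10.72 at week 1, 10.90, 10.71 and 10.71 at week 2, and 10.75, 10.51 and 10.84 at week 3. It was above healthy on all 3 week 2 arrays, with a log2 fold change of 0.29 (SE 0.12, adjusted p = 0.435).

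Itga5, the α5 chain of the fibronectin receptor, read 11.89, 11.86 and 11.98 in healthy lungs, 12.12, 11.999 and 11.54 at week 1, 12.02, 12.01 and 12.24 at week 2, and 12.36, 12.17 and 12.09 at week 3. The week 3 and healthy arrays did not overlap, and the log2 fold change of 0.29 did not pass (SE 0.11, adjusted p = 0.208). Its probe sets disagreed: the second gave 0.62 (adjusted p = 0.0634), and the other 2 gave -0.15 and -0.21. The direction for Itga5 therefore depends on the probe set. Fibronectin itself (Fn1) read 12.27, 11.89 and 12.30 at week 3, against 10.61, 10.95 and 10.68 at week 2, and rose between them (log2 fold change 1.41, SE 0.15, adjusted p = 0.0176).

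The laminin receptor chain Itga6 and the shared chain Itgb1, which pairs with most α chains here, did not pass at any week. Itga6 read 12.12, 11.97 and 11.81 at week 3 and 12.02, 12.08 and 11.77 in healthy lungs, with a 95% interval of the log2 difference of -0.31 to 0.32. Itgb1 read 12.30, 12.33 and 12.32 at week 3 and 12.26, 12.17 and 12.35 in healthy lungs, with an interval of -0.18 to 0.30. Over all 12 arrays Itga6 lay between 11.77 and 12.13 and Itgb1 between 12.14 and 12.35. Of the 6 probe sets of Itgb1, a further 2 had log2 fold changes of 0.29 and 0.58 at week 3, which did not pass (adjusted p = 0.195 and 0.218). The probe sets at -0.13 and -0.02 lay above the median of all values on 0 of 12 arrays.

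Itgb5, the β5 chain of the vitronectin receptor αVβ5, read 11.13, 11.06 and 10.70 at week 3 and 10.99, 11.33 and 11.32 in healthy lungs, which overlapped, with an interval of the log2 difference of -0.62 to 0.13. At week 1 it read 11.12, 11.26 and 11.41 and at week 2 it read 11.17, 11.40 and 11.12. Its partner Itgav read 10.35, 10.30 and 10.53 at week 1 and 10.12, 10.30 and 10.17 at week 2.

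**Figure D4:**
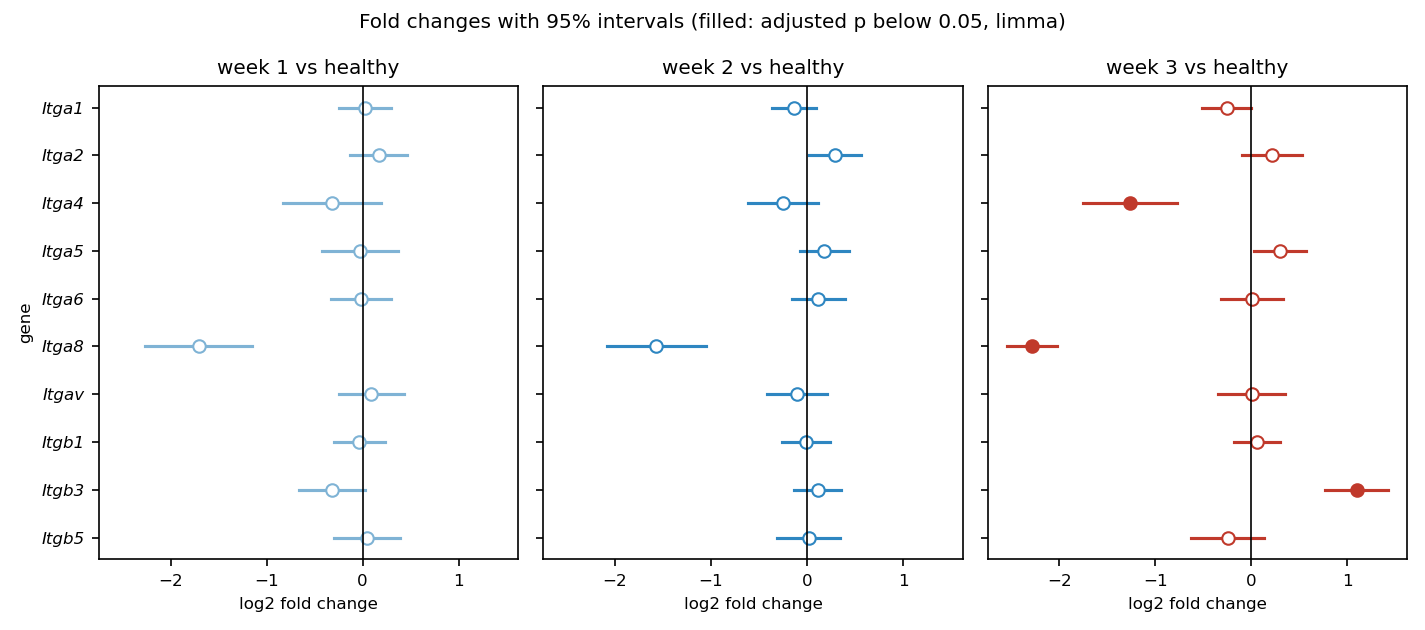
Log2 fold change of each subunit at weeks 1, 2 and 3 against healthy, with 95% intervals from limma and filled circles for an adjusted p below 0.05. Filled circles stand at week 3 for Itga4 (-1.27), Itga8 (-2.29) and Itgb3 (1.10), and the intervals of Itga8 at weeks 1 and 2 lie below 0 without a call after adjustment.

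The genes whose pattern was most like each called subunit were found by Pearson's r of log2 values over the 12 arrays, which share group differences and hybridization, as a description. Those of Itgb3 were Galnt1 (r = 0.96), which starts mucin-type O-glycosylation, the predicted gene Gm36243 (0.95) and Apln (0.95), the ligand apelin of endothelial tip cells. Those of Itga8 were the basement membrane collagen chain Col4a4 (0.97), the dipeptidase Dpep1 (0.97) and Tcf21 (0.97), a transcription factor of lung fibroblasts. Those of Itga4 were Med13l (0.95), a Mediator subunit, Gdpd1 (0.95) and the tyrosine phosphatase Ptpn3 (0.94). The group means of Gm36243 (5.63 to 6.10) and of Ptpn3 (7.29 to 7.91) were below the median of all values (8.13).

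Among the other integrin subunits, 14 of 16 listed were measured. Of these, 0 rose and 1 fell at week 3 against healthy, beside 2.38% and 2.63% of all genes. The subunit that fell was Itgb6, the epithelial β6 chain, which read 6.38, 6.32 and 6.53 at week 3 and 7.37, 7.83 and 7.17 in healthy lungs (log2 fold change -1.05, SE 0.18, adjusted p = 0.0258). These signals all lay below the median of all values (8.13). Transcripts of alveolar epithelium fell on the same arrays, with 3 of 5 type 1 and 3 of 5 type 2 markers fallen, beside 2.63% of all genes. Their part in the fall of Itgb6 was not tested. The median of the 14 was -0.10 at week 3, beside 0.03 over all genes.

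Of 41 measured transcripts of adaptors and activators, which couple integrins to the cytoskeleton, 0 rose and 1 fell at week 3 against healthy. Over all genes, 2.38% rose and 2.63% fell there. Of the 41, 28 had values below healthy and 13 above, and the median log2 fold change was -0.09, beside 0.03 over all genes. The one that fell was Tns4, the short tensin that binds β integrin tails, at 6.00, 6.21 and 6.19 at week 3 and 8.06, 7.48 and 8.23 in healthy lungs (log2 fold change -1.79, SE 0.20, adjusted p = 0.00626). It also fell against week 2 (log2 fold change -2.23), and its week 3 signals lay below the median of all values (8.13). Talin 1 (Tln1), which activates integrins from inside the cell, had a log2 fold change of 0.07 with a 95% interval of -0.16 to 0.30, and did not pass.

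Ligands of integrins moved in both directions. Of 32 measured, 3 rose and 3 fell at week 3 against healthy, beside 2.38% and 2.63% of all genes. The median log2 fold change was 0.14, beside 0.03 over all genes. The laminin chain Lama1 read 10.07, 9.90 and 9.92 at week 3 and 8.05, 8.27 and 8.19 in healthy lungs (log2 fold change 1.79, SE 0.11, adjusted p = 0.00103). Periostin (Postn) and the laminin chain Lama2 fell, with log2 fold changes of -1.07 and -1.02. Against week 2, 6 ligands rose and 0 fell, beside 1.35% and 0.748% of all genes. Those that rose included the laminin chain Lamb1 (1.71), tenascin C (Tnc, 1.43), fibronectin (Fn1, 1.41) and the collagen chain Col1a1 (1.29). Against week 1, 5 rose and 0 fell, beside 0.649% and 0.192% of all genes. At week 2 against healthy, 1 of 32 fell, Col1a1 (log2 fold change -1.11), beside 0.137% of all genes. Col1a1 is also among the fibroblast markers, whose part was not tested. At week 1 none passed in limma at the same threshold.

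Of 12 pan-endothelial markers, 0 passed in any of the 6 comparisons in limma. Their summed level was 16.64 to 16.71 in healthy lungs, 16.73 to 16.77 at week 1, 16.71 to 16.74 at week 2 and 16.62 to 16.70 at week 3, so that weeks 1 and 2 lay slightly above healthy. Arrays correlated within groups by 0.973 to 0.983 and between groups by 0.961 to 0.981. In all, 912 genes passed at week 3 against healthy, 44 at week 2 and 9 at week 1.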

How the data were processed

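Expression in lung ECs was read with 12 Affymetrix Mouse Genome 430 2.0 arrays, 3 for each of 4 groups, from picogram amounts of RNA labelled after amplification. The deposited values are log2 signals per probe set that the authors made by robust multiarray averaging (background correction, quantile normalization, summarization) in Chipster 3.8.0, which pulls the arrays to a common distribution. Sequencing depth does not apply, and the number of arrays limits the precision. Of 45101 probe sets, 64 array controls were set aside, and 34945 of 45037 carry 1 symbol, 932 several and 9160 none.

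Each comparison was a fit of its 2 groups alone (limma 3.58.1, lmFit and eBayes, under R 4.3.3), with Benjamini-Hochberg adjustment over 45037 probe sets, after the methods of the study. No low filter was applied in the main fit, and the fits were tested on simulated data. All 10 subunits are named. Fold changes are given where the unadjusted p was below 0.05, with intervals for others. Other lists give counts and up to 4 called members. Other genes are named as partners, ligands or markers and were chosen after their values were seen. The members and lists were chosen with earlier results of these data known. The weeks share the healthy arrays. Summed marker levels are log2 of summed linear signals. Alternatives were one fit of all groups, a replicate block, each array left out, renormalization, median centring, a low filter, no _x_at or _s_at probe sets, the mean of probe sets, trended and robust variance, array weights and, chosen after seeing the data, the second probe set. Python 3.11.15 with pandas 2.3.3 and matplotlib 3.10.9 did the rest.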

Additional observations from a re-analysis of the deposited data

Results flagged for a closer look

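The following differences between stages were past the test on the difference itself (limma, adjusted p below 0.05). Week 3 exceeded week 2 for Itgb3 by 0.98 on the log2 scale, and for the matrix genes Lamb1 by 1.71, Tnc by 1.43, Fn1 by 1.41, Col1a1 by 1.29, Lama4 by 1.28 and Lama1 by 0.83. Tns4 was lower at week 3 than at week 2, with a log2 fold change of -2.23. Week 3 exceeded week 1 for Itgb3 by 1.42, for Itga2b by 1.37, and for Lamb1 by 1.55, Tnc by 1.52, Lama1 by 1.499, Fn1 by 1.19 and Col1a1 by 1.17. Col1a1, also a fibroblast marker here, had fallen at week 2 against healthy, and the part of fibroblasts in its difference was not tested. The weeks share the healthy arrays, which do not enter these differences.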

How the results depend on the processing

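Itga8 at week 3 against healthy passed in all 16 alternatives, between -2.74 and -2.24. In these alternatives 0 of the subunits with an unadjusted p below 0.05 turned direction, but the third and the fourth probe set of Itga5, which were not among them, gave -0.15 and -0.21 at week 3 against healthy, where the first gave 0.29. With the replicate number as a block, Itga4 at week 3 against healthy was -1.27 (adjusted p = 0.0790), and Itgb3 was 0.98 against week 2 (adjusted p = 0.0937) and 1.42 against week 1 (adjusted p = 0.0728), none of which passed. The replicate numbers do not pair the arrays: same-numbered deviations correlated by -0.10 to 0.06. The block gave 378 called genes at week 3, 0 at week 2 and 0 at week 1 against healthy, and 0 for week 3 against week 2 and 3 against week 1. With the second probe set, Itgb3 was 0.48 against healthy, 0.38 against week 2 and 0.55 against week 1, none passing. One fit of all groups called 106 genes at week 2 and 169 at week 1 against healthy, 605 and 530 for week 3 against weeks 2 and 1, and 1 for week 2 against week 1. The low filter called 90, 139 and, for week 3 against week 2, 580. The mean of probe sets called 1426, 134 and 181 against healthy at weeks 3, 2 and 1, and 713 and 368 for week 3 against weeks 2 and 1. Trended and robust variance called 115 and 188 at weeks 2 and 1, 776 and 435 for week 3 against weeks 2 and 1, and 5 for week 2 against week 1. Array weights called 57 at week 1. The cause was not tested. Leaving out 1 array gave 330 to 503 called genes at week 3, 0 to 26 at week 2 and 0 to 6 at week 1 against healthy, and 0 to 137 and 0 to 52 for week 3 against weeks 2 and 1. It gave -1.39 to -1.05 for Itga4 and 1.01 to 1.21 for Itgb3 at week 3 against healthy, and 0.89 to 1.10 and 1.31 to 1.53 for Itgb3 against weeks 2 and 1. With 3 arrays a group, a small change can be missed.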
